A study of Mus musculus with 10 samples.

Results

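The 9 genes described here carry the insulin signal in the liver or respond to it: the receptor Insr, the receptor substrates Irs1 and Irs2, the adaptor Grb10, the phosphoinositide 3-kinase subunit Pik3r1, the kinase Akt2, the transcription factors Foxo1 and Foxo3, and the secreted protein Igfbp1. They were chosen by name for their place in the pathway, with earlier results of these data known. The choice already named Irs2 as induced by glucagon, so its call below is no independent result. Each gene was read from the array feature with 1 gene symbol that had the highest mean over the 10 libraries. They are 9 of 16401 genes with such a feature, and all 9 were among the 11480 genes tested after the lowest 30 percent by mean were left out. RNA of primary hepatocytes of male C57BL6/J mice aged 10 weeks was measured on gene arrays, and every culture carried an adenovirus. The virus (2 to 4 plaque-forming units per cell, 72 hours) expressed a short hairpin RNA against Kat2b (shKAT2B), one against Wdr5 (shWDR5) or a non-specific one (shNS). Kat2b encodes an acetyltransferase of histones, and Wdr5 a scaffold of complexes that methylate histones. Cells then received 100 nM glucagon or phosphate-buffered saline (PBS) for 90 minutes. The groups were shKAT2B glucagon (2 libraries), shKAT2B PBS (1 library), shWDR5 glucagon (2 libraries), shWDR5 PBS (1 library), shNS glucagon (2 libraries) and shNS PBS (2 libraries). Each library pooled RNA of 3 dishes, and libraries of 1 group are told apart by the letters A and B. The labels name 1 hairpin per target and do not say that the letters stand for separate animals, so the tests speak of the spread among these 10 libraries, which may be technical.

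Insulin binds its receptor, which phosphorylates the substrates Irs1 and Irs2. These recruit phosphoinositide 3-kinase, whose lipid product activates Akt2, the main Akt of insulin action in liver. Akt phosphorylates Foxo1 and Foxo3 and keeps them out of the nucleus, so in fasting, when insulin is low, FOXO factors raise Irs2, Igfbp1 and the genes of glucose production. Glucagon, the hormone of fasting, acts through cyclic AMP and the factor CREB, and Irs2 is a known target of both routes in mouse liver. Grb10 binds the receptor and restrains its signal.

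Promoter sequence is shown for the members whose window of 250 bases before the start held the insulin response element core CAAAACA, the letters to which FOXO factors are known to bind. The windows run 5′ to 3′ on the gene's own strand, from RefSeq on GRCm38.p6. Capitals mark that core on either strand (read as TGTTTTG where it lies on the other strand). In Irs1 they also mark the cyclic AMP response element core TGACG, which is read there as CGTCA.
Irs2 (chr8:11008930-11009179, minus strand): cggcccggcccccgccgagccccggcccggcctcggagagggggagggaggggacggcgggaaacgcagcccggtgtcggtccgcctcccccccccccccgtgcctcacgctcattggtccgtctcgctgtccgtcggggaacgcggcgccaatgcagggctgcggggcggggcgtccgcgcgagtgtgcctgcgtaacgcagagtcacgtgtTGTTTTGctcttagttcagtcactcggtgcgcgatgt
Irs1 (chr1:82291440-82291689, minus strand): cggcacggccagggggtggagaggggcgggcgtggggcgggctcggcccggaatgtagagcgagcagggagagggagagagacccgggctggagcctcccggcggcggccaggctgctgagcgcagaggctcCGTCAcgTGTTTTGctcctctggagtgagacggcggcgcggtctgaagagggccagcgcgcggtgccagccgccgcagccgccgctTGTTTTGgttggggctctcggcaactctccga
Igfbp1 (chr11:7197537-7197786, plus strand): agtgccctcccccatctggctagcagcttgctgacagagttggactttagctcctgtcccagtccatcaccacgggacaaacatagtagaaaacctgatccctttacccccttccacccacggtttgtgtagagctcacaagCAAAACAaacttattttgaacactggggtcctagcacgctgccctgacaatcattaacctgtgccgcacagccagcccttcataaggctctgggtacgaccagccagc
In Irs2 the core lay 37 to 31 bases before the start. In Irs1 it stood at 111 to 105 and again at 32 to 26 bases before the start, with the cyclic AMP response element core at 118 to 114 bases. In Igfbp1 it lay 108 to 102 bases before the start. Over the same 250 bases, 3 of the 13 windows of the 9 members held CAAAACA, against 5.56 percent of all 32851 windows. The core TGACG was found in 6 of the 13 windows, of 5 members (Akt2, Foxo3, Grb10, Irs1 and Pik3r1), against 17.8 percent of all windows. The full element TGACGTCA and the FOXO element GTAAACA were in 0 of the 13, against 1.55 and 3.17 percent of all windows. A match of letters is no binding site by itself.

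Beyond arm and treatment, the libraries fell into sets. After the additive fit, 1 component carried 78.0 percent of what remained of the variance. On it a first set of 4 libraries (shKAT2B glucagon A, shWDR5 glucagon A, shNS glucagon A and shNS PBS A) lay apart from a second set of 6, with each group represented once. The labels give no batch, and the sets were read from these same libraries, so p-values of fits that contain the set are too small. Results are given without and with the set as a term. Summed intensity of 15 Kupffer cell and leukocyte markers was 11199 to 15907 in the second set and 7603 to 9610 in the first. Endothelial markers were also higher in the second set (5233 to 6958, against 4222 to 4834), whereas markers of stellate cells and fibroblasts summed lower there (5553 to 6374, against 8289 to 8654). Each hairpin lowered its target: Kat2b stood at 6.60 to 6.93 in shKAT2B libraries against 9.40 to 9.59 elsewhere, and Wdr5 at 8.19 to 8.40 in shWDR5 libraries against 9.98 to 10.07 elsewhere (log2 intensity). Hepatocyte markers were high, with albumin (Alb) at the 99.8th percentile of all genes, although Cps1 stood at the 34.4th and Asgr1 was below the filter. In bulk RNA, fewer cells of a type and less RNA per cell cannot be told apart.

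**Figure D1:**
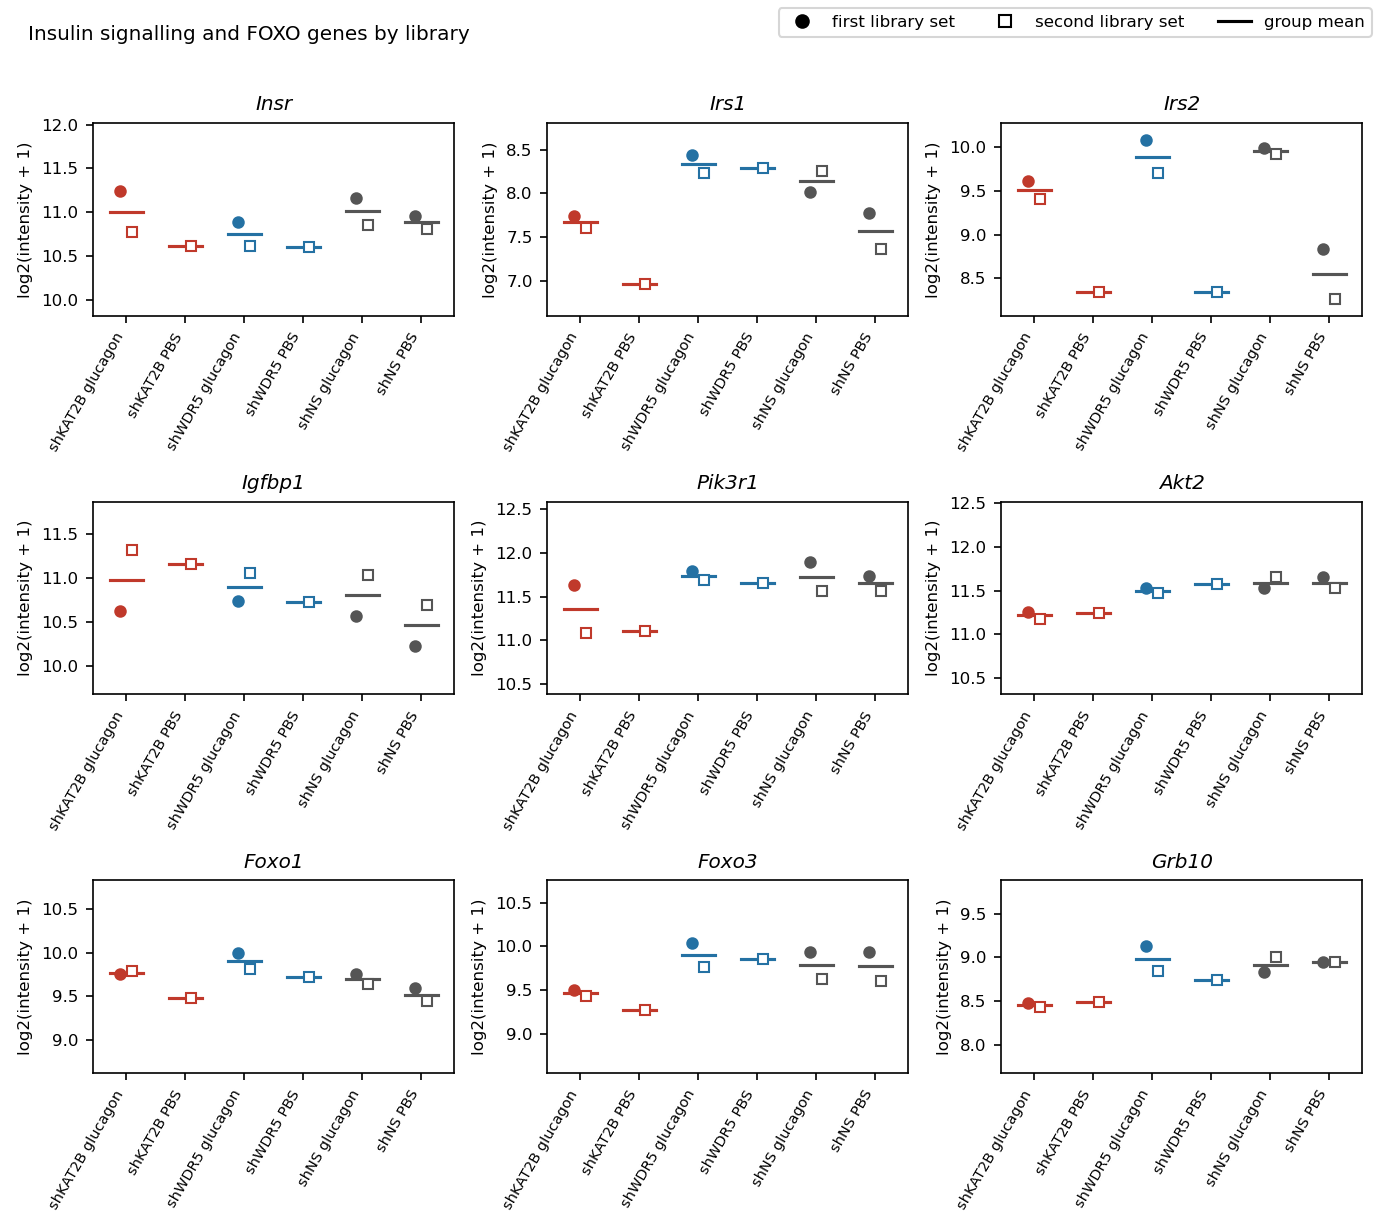
Level of each member as log2(intensity + 1) in every library, by group, with filled circles for the first library set, open squares for the second and lines for group means; every panel spans the same number of log2 units. Irs2 is higher in every glucagon library (9.41 to 10.08) than in every PBS library (8.27 to 8.84), and Akt2, Foxo3 and Grb10 are lower in every shKAT2B library than in every shNS library.

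Glucagon raised Irs2 about 2.58-fold over the arms, and it was the single member of the 9 that passed the test. Irs2 (feature 10576971, gene at chr8:10984681-11008929) stood at 9.61 and 9.41 in shKAT2B glucagon libraries (A, then B) against 8.35 in shKAT2B PBS. It stood at 10.08 and 9.70 in shWDR5 glucagon libraries against 8.35 in shWDR5 PBS. In shNS it stood at 9.99 and 9.92 with glucagon against 8.84 and 8.27 with PBS (log2 intensity throughout). All 6 glucagon libraries lay above all 4 PBS libraries. How many of all genes did so was not counted. Within each arm, 2.83 percent of all genes tested lay higher with glucagon without overlap. The fitted difference was 1.37 ± 0.13 (log2, SE here and below; limma, adjusted p = 0.000996 over all genes tested), and 1.29 ± 0.08 with the library set as a term (adjusted p = 7.27e-07). Pairs of libraries within a set differed by 1.06 to 1.65, higher with glucagon in 4 of 4 pairs. Of all genes tested, 0.923 percent (106 of 11480) were called for glucagon and 0.679 percent (78) were called higher. By size Irs2 ranked 19 among those 78.

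The other 8 members differed with glucagon by -0.03 to 0.45, with a median of 0.13 beside 0.01 over all genes tested, and 0 of them passed in the additive fit of limma, with Irs1 and Foxo1 under an unadjusted p of 0.05. The receptor Insr (chr8:3150922-3279649) stood at 11.24, 10.77, 10.89, 10.62, 11.16 and 10.86 in the glucagon libraries (shKAT2B, shWDR5 and shNS, A before B in each). It stood at 10.62, 10.60, 10.96 and 10.81 in the PBS libraries in the same order of arms. The groups overlapped, and the difference was 0.21 ± 0.11 (limma, adjusted p = 0.962). Irs1 (feature 10356084, chr1:82233105-82291439), the substrate that shares the receptor with Irs2, stood at 7.74 and 7.60 in shKAT2B glucagon against 6.97 in shKAT2B PBS. In shNS it stood at 8.02 and 8.26 with glucagon against 7.78 and 7.37 with PBS. Both of these arms were higher with glucagon with no overlap. In shWDR5 it stood at 8.44 and 8.23 with glucagon against 8.29 with PBS, so that arm overlapped. The difference of 0.45 ± 0.13 for Irs1 did not pass (adjusted p = 0.328; 0.0691 with the set as a term).

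Downstream of the substrates, none of the glucagon differences over the arms passed in the additive fit. Pik3r1, the regulatory subunit of phosphoinositide 3-kinase, differed by 0.13 ± 0.11, Akt2 by -0.03 ± 0.05 and the adaptor Grb10 by 0.04 ± 0.08 (log2). Foxo1 (chr3:52268337-52350109) stood at 9.75 and 9.79 in shKAT2B glucagon against 9.48 in shKAT2B PBS. It stood at 10.00 and 9.81 in shWDR5 glucagon against 9.72 in shWDR5 PBS, and at 9.76 and 9.64 in shNS glucagon against 9.59 and 9.45 in shNS PBS. Glucagon libraries were thus the higher ones within each arm, as they were for 2.83 percent of all genes tested. The Foxo1 difference of 0.21 ± 0.06 did not pass (adjusted p = 0.370, and 0.0602 with the set as a term). Foxo3 differed by 0.07 ± 0.10.

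Igfbp1 (feature 10374223, chr11:7197787-7202546), a liver-secreted protein that binds insulin-like growth factors and is a textbook FOXO target, moved with the library set. It stood at 10.63 and 11.32 in shKAT2B glucagon against 11.16 in shKAT2B PBS. It stood at 10.74 and 11.06 in shWDR5 glucagon against 10.73 in shWDR5 PBS, and at 10.57 and 11.04 in shNS glucagon against 10.23 and 10.70 in shNS PBS. In all 4 groups with a pair, library B was the higher one; the second set exceeded the first by 0.50 in the fit. The glucagon difference was 0.14 ± 0.18 (adjusted p = 0.962), and with the set as a term it was 0.28 ± 0.06 and passed (limma, adjusted p = 0.0276), where 3.35 percent of all genes were called. Within sets glucagon was higher in 4 of 4 pairs, by 0.16 to 0.34. Kupffer cell markers, which also differed between the sets, had a median glucagon difference of -0.14, or 0.06 with the set as a term, with 0 of 13 called in either. Their summed intensity was 7603 to 15907 in glucagon libraries and 7750 to 14718 in PBS libraries, and their part in the Igfbp1 values was not tested.

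**Figure D2:**
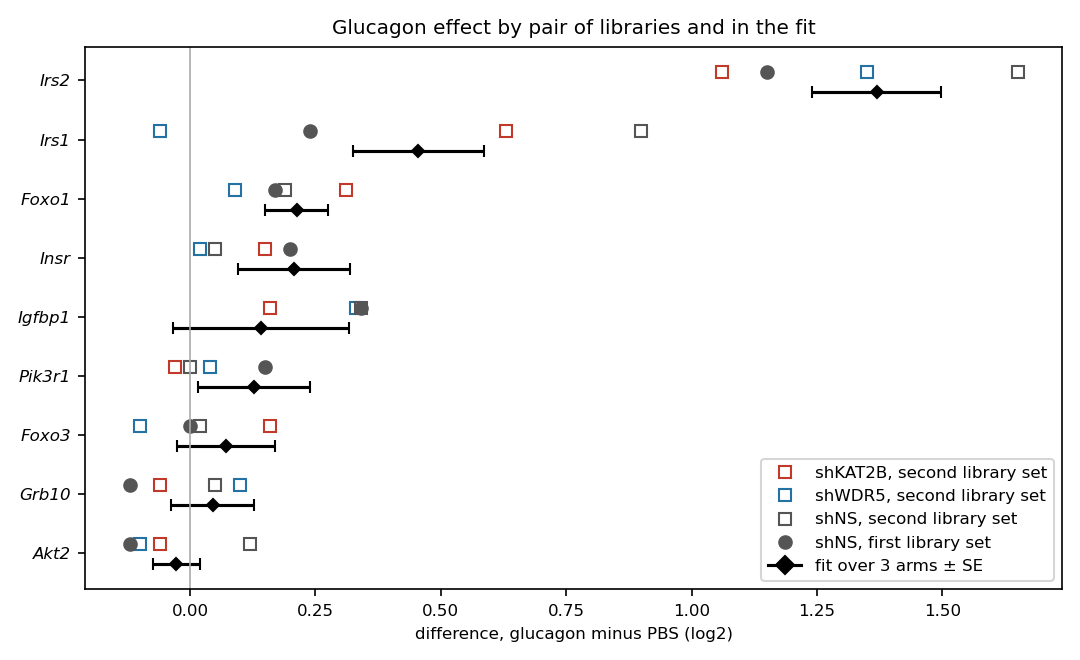
Glucagon minus PBS (log2) for each member; squares and circles are pairs of libraries within 1 set, coloured by arm, and black diamonds the fit over the 3 arms with its SE. Irs2 pairs lie at 1.06 to 1.65, apart from the pairs of every other member, of which the highest is an Irs1 pair at 0.90.

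By arm, Irs2 differed with glucagon by 1.16 ± 0.26 in shKAT2B, 1.54 ± 0.26 in shWDR5 and 1.40 ± 0.21 in shNS (log2). None of these passed over all genes tested (limma, adjusted p = 0.899, 0.321 and 0.103 in the same order), although each had an unadjusted p under 0.05. In these arms 0.061, 0.0871 and 0.192 percent of genes were called. With the library set as a term the differences were 1.01, 1.38 and 1.40, all called (adjusted p = 0.00469, 0.000342 and 1.75e-05), beside 0.645, 0.758 and 1.93 percent of genes. With the replicate letter as a block they were 1.31, 1.69 and 1.40, also called, beside 26.3, 14.8 and 1.93 percent of genes. In shNS the letter and the set mark the same libraries, so both fits give the same result there. Under that block Irs2 was the 1 member called in shWDR5 and in shNS, whereas in shKAT2B 7 of 9 were called. In that arm Irs1 (0.76), Insr (0.53), Pik3r1 (0.39), Foxo1 (0.34) and Foxo3 (0.32) were higher with glucagon beside Irs2, and Igfbp1 was lower (-0.43). The block pairs the lone shKAT2B PBS library, lettered A, with libraries of the first set, although it lay with the second. Within the second set, the shKAT2B pair differed by 0.63 for Irs1, 0.15 for Insr, -0.03 for Pik3r1, 0.31 for Foxo1, 0.16 for Foxo3 and 0.16 for Igfbp1, and with the set as a term Irs2 was the 1 member called in each arm. The glucagon difference of Irs2 in shKAT2B minus that in shNS was -0.24 ± 0.34 (95 percent interval -1.04 to 0.56; adjusted p = 0.999). That in shWDR5 minus shNS was 0.14 ± 0.34 (-0.66 to 0.94; adjusted p = 1). With the set as a term they were -0.39 ± 0.17 (unadjusted p = 0.0452, adjusted p = 1, where 0.0174 percent of genes were called) and -0.013 ± 0.17. The first of these had an interval of -0.77 to -0.01, while without the set both intervals included values on either side of 0. In the model of 6 groups 0 members and 0 genes (0.0 percent) passed limma for either difference, with 36 genes for shKAT2B and 20 for shWDR5 at an unadjusted p under 0.05.

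The groups' mean levels of Irs2 ran in the order shNS glucagon (9.96), shWDR5 glucagon (9.89), shKAT2B glucagon (9.51), shNS PBS (8.56), and shWDR5 PBS and shKAT2B PBS (both 8.35). Libraries of the shNS and shWDR5 glucagon groups overlapped, and both shKAT2B glucagon libraries lay below them. Under glucagon shKAT2B minus shNS was -0.44 ± 0.21 for Irs2 (limma, adjusted p = 0.398), where 1.34 percent of genes were called. It was -0.44 ± 0.11 with the set as a term (adjusted p = 0.0105), where 27.2 percent were called. In PBS it was -0.20 ± 0.26 (adjusted p = 0.814; 0.505 percent of genes called), and -0.052 ± 0.14 with the set as a term (18.4 percent called). The lone shKAT2B library lay inside the shNS range.

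For Igfbp1 the glucagon difference in shKAT2B minus that in shNS was -0.52 ± 0.44 (limma, adjusted p = 0.999). With the replicate letter as a block it was -0.77 ± 0.13 and passed (adjusted p = 0.00704), where 12.0 percent of all genes were called. With the set as a term it was -0.28 ± 0.13 (adjusted p = 1). The pair within the second set was 0.16 in shKAT2B and 0.34 in shNS.

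In shKAT2B 3 of the 9 members, Akt2, Grb10 and Foxo3, were lower than in shNS over both treatments. Of all genes tested, 15.6 percent were called in this comparison and 8.95 percent were called lower. The median over the members was -0.36, beside 0.01 over all genes tested. Akt2 (feature 10374364, gene at chr7:27591552-27640826) stood at 11.25, 11.18 and 11.24 in shKAT2B (glucagon A, glucagon B and PBS). It stood at 11.53, 11.65, 11.65 and 11.53 in shNS (glucagon A and B, then PBS A and B). Every shKAT2B library lay below every shNS library, and the difference was -0.36 ± 0.05 (limma, adjusted p = 0.00300). A second Akt2 feature, 10551393, fitted among all features, gave -0.42 ± 0.05 (adjusted p = 0.00117). The chosen feature is listed in the annotation between features of Ikzf1 and Egfr, and the second one elsewhere, so both are given.

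Grb10 (feature 10384398, chr11:11930499-12037428) stood at 8.48, 8.43 and 8.49 in shKAT2B, against 8.83, 9.0, 8.95 and 8.95 in shNS, in the same order of libraries. The groups did not overlap, and the difference was -0.47 ± 0.10 (limma, adjusted p = 0.0120). Without shKAT2B PBS A or without shKAT2B glucagon B, Grb10 no longer passed (adjusted p = 0.0609 and 0.0534). Foxo3 (feature 10368888, chr10:42181845-42276695), a factor of stress resistance and autophagy genes beside Foxo1, stood at 9.50, 9.43 and 9.27 in shKAT2B, against 9.94, 9.63, 9.94 and 9.61 in shNS. The groups did not overlap, and the difference of -0.39 ± 0.11 lay just within the threshold (adjusted p = 0.0493). It passed still without shNS glucagon B or without shWDR5 glucagon B, but in none of the other 8 fits that left out a library, where its adjusted p reached 0.275 (without shKAT2B PBS A). Nor did it pass with no filter on low values, with no trend or with only the libraries compared (adjusted p = 0.0588, 0.0502 and 0.0829).

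The remaining members did not pass in shKAT2B in the additive fit. In other settings, Irs1 passed with quantile normalization, with median-centred libraries and with only the libraries compared. Pik3r1 passed with median-centred libraries. Irs1 differed by -0.50 ± 0.15 (adjusted p = 0.0602), with shKAT2B below shNS within each treatment and in 3 of 3 pairs within sets. With shNS PBS B left out it passed (adjusted p = 0.0407), as it did with shWDR5 glucagon B (0.0480) or shWDR5 PBS A left out (0.0322). Pik3r1 (feature 10411782, chr13:101680761-101768217) stood at 11.63, 11.08 and 11.11 in shKAT2B against 11.89, 11.56, 11.74 and 11.56 in shNS. Its groups overlapped through shKAT2B glucagon A, a library of the first set. Pik3r1 differed by -0.44 ± 0.13 (adjusted p = 0.0551), and by -0.48 to -0.26 in the 3 pairs within sets. It passed without shKAT2B glucagon A or shNS glucagon B (adjusted p = 0.00491 and 0.0399). Igfbp1 differed by 0.38 ± 0.21 (adjusted p = 0.270), and by 0.60 without shKAT2B glucagon A, where it passed (0.0414). Irs2 differed by -0.36 ± 0.15 (adjusted p = 0.155), Insr by -0.11 ± 0.13 (0.657) and Foxo1 by 0.03 ± 0.07 (0.846). Within each treatment, 0 of the 9 members lay higher in shKAT2B without overlap, beside 16.4 percent of genes, and 4 lay lower, beside 16.6 percent.

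With the library set as a term 7 of 9 members passed in shKAT2B, where 41.5 percent of all genes were called. Akt2, Foxo3, Grb10, Irs1, Irs2 and Pik3r1 were lower and Igfbp1 was higher, at 0.27 ± 0.07 (limma, adjusted p = 0.0109). With the replicate letter as a block 7 of 9 passed too, beside 29.6 percent of all genes. Letter and set part the libraries differently only for the lone PBS libraries, so the fits are not separate support. Hepatocyte markers moved with the same arm: their summed intensity was 43692 to 46538 in shKAT2B and 51898 to 56906 in shNS, with no overlap. Of 9 hepatocyte markers tested 5 were called lower in shKAT2B (9 with the set as a term), with a median of -0.41. Summed Kupffer cell and leukocyte markers were 8892 to 15907 in shKAT2B and 7603 to 12423 in shNS, with a median difference of 0.45 and 0 of 13 called (8 higher with the set as a term). Endothelial markers summed to 4398 to 6958 in shKAT2B and 4222 to 5858 in shNS, with 1 of 10 called higher (4 with the set). Stellate cell and fibroblast markers summed to 6275 to 8654 in shKAT2B and 5553 to 8310 in shNS, with 0 of 8 called by limma (5 higher with the set). The part of any of these in the members' differences was not tested.

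**Figure D3:**
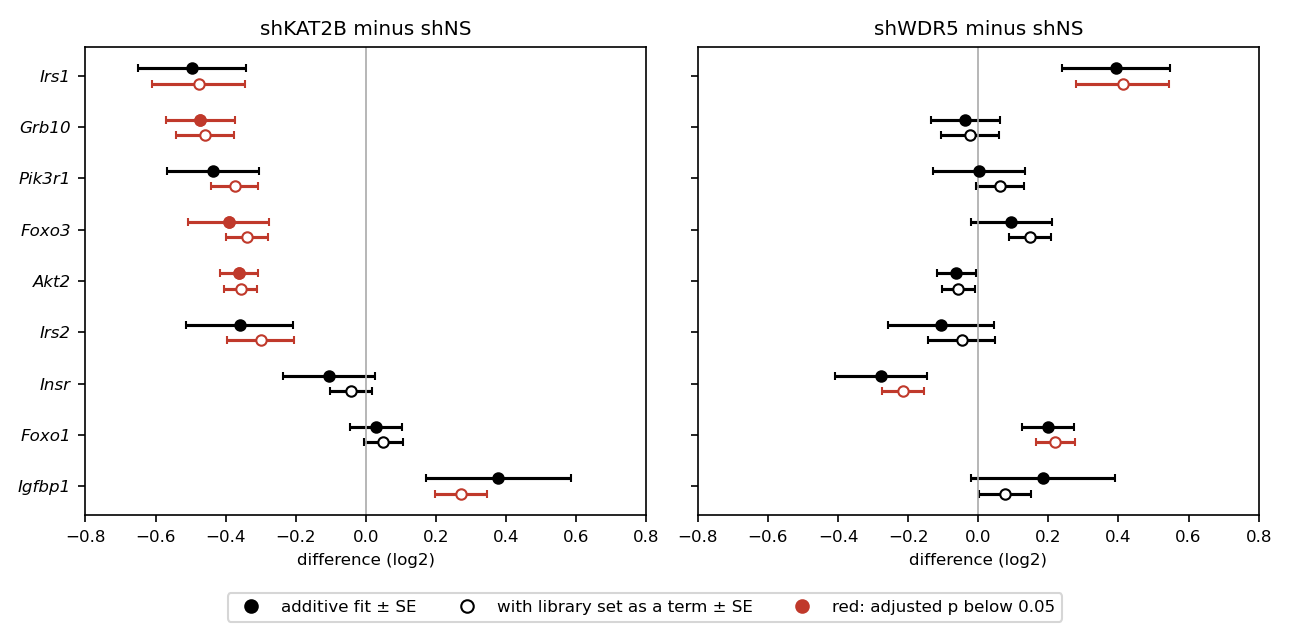
Difference of each member between shKAT2B and shNS (left) and between shWDR5 and shNS (right) on the log2 scale, with its SE; filled points are the additive fit, open points the fit with the library set as a term, and red marks an adjusted p below 0.05. In shKAT2B the points of Akt2, Grb10, Foxo3, Irs1, Pik3r1 and Irs2 lie below 0 in both fits, while in shWDR5 the red points, all with the set as a term, are Irs1 and Foxo1 above 0 and Insr below it.

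Between shWDR5 and shNS 0 of the 9 members passed the threshold in the additive fit of limma, where 10.9 percent of all genes were called. Foxo1 and Irs1 had an unadjusted p under 0.05. Irs1 stood at 8.44, 8.23 and 8.29 in shWDR5 (glucagon A, glucagon B and PBS), against 8.02, 8.26, 7.78 and 7.37 in shNS. The shWDR5 PBS library lay above both shNS PBS libraries, while the glucagon libraries overlapped. The difference was 0.39 ± 0.15 (adjusted p = 0.146), and 0.41 ± 0.13 with the set as a term, which passed (adjusted p = 0.0271). Foxo1 differed by 0.20 ± 0.07 (adjusted p = 0.130), and by 0.22 ± 0.05 with the set as a term, which passed (adjusted p = 0.00750). Foxo1 also passed with quantile normalization and with median-centred libraries (adjusted p = 0.0437 and 0.0364). It was higher in shWDR5 in 3 of 3 pairs within sets and without overlap within each treatment, as were 15.2 percent of all genes.

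Insr (feature 10576692) stood at 10.89, 10.62 and 10.60 in shWDR5, against 11.16, 10.86, 10.96 and 10.81 in shNS. The glucagon libraries overlapped through shWDR5 glucagon A, and the PBS library lay below both of shNS. The Insr difference was -0.28 ± 0.13 (limma, adjusted p = 0.222), -0.22 ± 0.06 with the set as a term (adjusted p = 0.0143) and -0.33 ± 0.09 with the replicate letter as a block (adjusted p = 0.0183). A second Insr feature, 10576696, gave -0.09 ± 0.06 with the set as a term and did not pass (adjusted p = 0.259), so the features of the gene disagreed in the call. With the set as a term 3 of 9 members passed, where 36.8 percent of all genes were called, and with the letter as a block 1 of 9, beside 26.7 percent. Irs2, Igfbp1, Pik3r1, Akt2, Foxo3 and Grb10 passed in none of the 3 fits when read from their chosen features. The second Akt2 feature, 10551393, was lower by -0.12 ± 0.04 with the set as a term and passed (limma, adjusted p = 0.0473). Without the set it did not pass (adjusted p = 0.180), so the Akt2 features also disagreed in the call. Hepatocyte markers summed to 45040 to 49712 in shWDR5, below the 51898 to 56906 of shNS, with 2 of 9 called lower (6 with the set as a term). Kupffer cell and leukocyte markers summed to 9610 to 13414 in shWDR5, against 7603 to 12423 in shNS, with 0 of 13 called (5 higher with the set). Of endothelial markers 0 of 10 were called (2 higher with the set), and of stellate cell and fibroblast markers 0 of 8 (3 higher with the set). The part of any of these markers was not tested.

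Set against each other, shKAT2B was lower than shWDR5 in 4 of 9 members, where 22.7 percent of all genes were called and 11.5 percent were called lower. Irs1 stood at 7.74, 7.60 and 6.97 in shKAT2B and at 8.44, 8.23 and 8.29 in shWDR5 (glucagon A, glucagon B and PBS). The arms did not overlap, and the Irs1 difference of -0.89 ± 0.16 was the widest of the members (limma, adjusted p = 0.00489). It passed in all 10 fits that left out a library. Irs1 had the lowest mean of the members (7.87, rank 9718 of 16401 genes) and was not tested where the lowest 50 percent of genes were left out. Its shKAT2B PBS value of 6.97 lay below the mean of the marker Marco (6.99), which the filter left out. Foxo3 no longer passed without shKAT2B PBS A, shKAT2B glucagon B, shWDR5 PBS A or shWDR5 glucagon A (adjusted p up to 0.0947), nor Grb10 without shKAT2B glucagon B (0.0613). Foxo3 differed by -0.49 ± 0.12 (adjusted p = 0.0197), Grb10 by -0.44 ± 0.10 (0.0161) and Akt2 by -0.30 ± 0.06 (0.00625). Pik3r1, at -0.44 ± 0.14, did not pass (0.0517), although its arms did not overlap either. In other settings it passed with quantile normalization, with median-centred libraries and with the lowest 50 percent of genes left out. It passed without shKAT2B glucagon A or shNS glucagon B (0.00488 and 0.0437), and with the replicate letter as a block (0.00381). Within each treatment 6 members lay lower without overlap, beside 20.0 percent of genes. With the set as a term 8 of 9 members passed, beside 50.4 percent of all genes. The comparisons of each arm with shNS share the shNS libraries, and this one shares the shKAT2B and shWDR5 libraries with them.

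The rest of the pathway was read from 6 lists, chosen for their role with earlier results of these data known. Their counts are thus descriptions. Under glucagon, 0 of 14 receptor-proximal genes, 0 of 11 of the kinase module, 0 of 18 of the mTOR and GSK3 branch and 0 of 10 of the insulin-like growth factor axis passed limma, at an unadjusted p under 0.05 also 0 in each list. Their medians were 0.02 to 0.06, beside 0.01 over all genes. Among 14 inhibitors of insulin signalling Trib2 was called higher and Trib1 lower. Both are Tribbles pseudokinases, a family whose member Trib3 is known to bind Akt. Trib2 stood at 8.16 and 7.95 in shKAT2B glucagon, 8.69 and 8.31 in shWDR5 glucagon, and 8.07 and 7.98 in shNS glucagon, against 7.07, 7.75, and 7.50 and 7.38 in the PBS groups of the same arms. All its glucagon libraries were above all PBS libraries, and 2.83 percent of all genes tested lay higher with glucagon without overlap within each arm. The Trib2 difference was 0.75 ± 0.10 (limma, adjusted p = 0.00957). Trib1 differed by -0.69 ± 0.11 (adjusted p = 0.0197).

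Of 23 FOXO targets and partners tested, 4 were called higher and 2 lower with glucagon, with a median of 0.13, beside 0.923 percent of all genes called. The genes of glucose production G6pc (3.16 ± 0.33) and Pck1 (1.64 ± 0.30) and the coactivator Ppargc1a (1.70 ± 0.07) were higher, as was the deacetylase Sirt1 (0.42 ± 0.07). In PBS libraries G6pc stood at 5.59 to 6.09, below the mean of the Kupffer cell marker Marco (6.99), which the filter left out. G6pc thus entered the test only through its glucagon libraries (7.87 to 9.99), and its call is a description. Gadd45a, a stress response gene, and Cited2, a transcriptional coregulator, were lower, at -0.50 ± 0.06 and -0.33 ± 0.05. Pck1, the enzyme that makes phosphoenolpyruvate, stood at 7.97 and 8.43 in shKAT2B glucagon, 7.52 and 9.06 in shWDR5 glucagon, and 9.13 and 9.50 in shNS glucagon. In PBS it stood at 6.98 in shKAT2B, 6.93 in shWDR5, and 7.08 and 7.36 in shNS. Its shKAT2B and shWDR5 PBS values lay below the mean of Marco (6.99). All its PBS values but that of shNS PBS B lay below the mean of Lrat (7.17), a stellate cell marker that was tested. Pck1 was thus near the filter in PBS and its place in the test leaned on its glucagon libraries, so its call too is a description. All 6 glucagon libraries of Pck1 lay above the 4 PBS libraries. Within each arm, 2.83 percent of all genes tested lay higher with glucagon without overlap. With the library set as a term, the counts under glucagon were 0 in the same 4 lists, 2 higher and 2 lower among inhibitors, and 4 higher and 2 lower among FOXO targets and partners, beside 3.35 percent of all genes called.

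In shKAT2B the list counts are to be read against 15.6 percent of all genes called and 8.95 percent called lower. There 3 of 14 receptor-proximal genes were lower: the docking adaptor Gab1 (-0.57 ± 0.13), the receptor inhibitor Grb14, a relative of Grb10 (-0.50 ± 0.07), and the exchange factor Sos1 (-0.38 ± 0.10). In the kinase module, 1 of 11 was lower and 1 higher. Pik3cb, a catalytic subunit of phosphoinositide 3-kinase, stood at 9.94, 9.91 and 9.94 in shKAT2B against 10.50, 10.55, 10.67 and 10.60 in shNS (glucagon, then PBS), with a difference of -0.63 ± 0.07 (limma, adjusted p = 0.000721). Akt1, the more widely expressed relative of Akt2, stood at 12.16, 12.16 and 12.05 in shKAT2B against 11.87, 11.75, 11.98 and 11.75 in shNS. Neither gene's groups overlapped. Akt1 was higher by 0.28 ± 0.07 (adjusted p = 0.0277), so the sign of Akt1 was opposite to that of Akt2. The mTOR inhibitor Deptor (-0.87 ± 0.15) and the Akt substrate Tbc1d4 (-0.32 ± 0.08) were lower among 18 genes of the mTOR and GSK3 branch.

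Among FOXO targets and partners in shKAT2B, Bnip3, a mitophagy receptor (-0.71 ± 0.08), Sod2 (-0.35 ± 0.09) and Cat (-0.22 ± 0.04), both antioxidant enzymes, were lower. Sesn2, a stress-induced inhibitor of mTOR complex activity (0.60 ± 0.12), and the cell cycle inhibitor Cdkn1b (0.21 ± 0.06) were higher. The binding protein Igfbp3 was the 1 gene of 10 called in the growth factor axis, higher by 0.40 ± 0.10, and 0 of 14 inhibitors passed, with 1 at an unadjusted p under 0.05. With the set as a term, 3 receptor-proximal genes were higher and 4 lower, 5 and 3 of the kinase module, 3 and 3 of the mTOR and GSK3 branch, 4 and 1 of the inhibitors, 5 and 7 of the FOXO list and 4 and 2 of the growth factor axis, beside 41.5 percent of all genes called. In shWDR5, the adaptor Sh2b2 was higher (0.38 ± 0.09), and Grb7 (-0.44 ± 0.09), Grb14 (-0.33 ± 0.07) and Deptor (-0.59 ± 0.15) were lower. Of the FOXO targets and partners, Cdkn1b, Gadd45a, Bcl6, Sesn2 and Ppargc1a were higher in shWDR5, by 0.32 to 0.51, and Bnip3 and Txnip were lower, where 10.9 percent of all genes were called. In shWDR5, 0 of the kinase module, 0 inhibitors and 0 of the growth factor axis passed limma, with 1, 4 and 4 at an unadjusted p under 0.05. With the set as a term, 2 receptor-proximal genes were higher and 4 lower in shWDR5, 1 and 1 of the kinase module, 1 and 1 of the mTOR and GSK3 branch, 5 and 1 of the inhibitors, 8 and 6 of the FOXO list and 3 and 2 of the growth factor axis, beside 36.8 percent of all genes called.

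**Figure D4:**
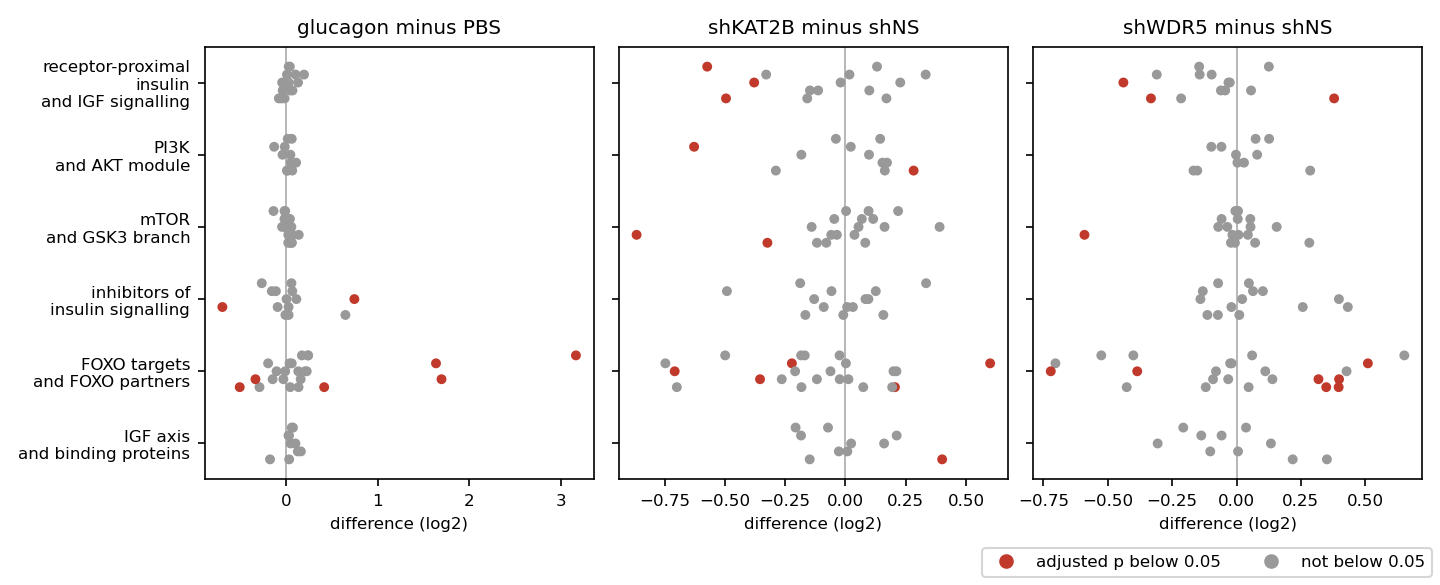
Differences (log2) of the tested genes of 6 pathway lists for glucagon minus PBS, shKAT2B minus shNS and shWDR5 minus shNS; each point is a gene and red marks an adjusted p below 0.05, and the horizontal scales differ between panels. Under glucagon the red points lie among inhibitors and FOXO targets, with G6pc farthest right at 3.16. G6pc passed the filter on low values only through its glucagon libraries, and Pck1 was near that filter in its PBS libraries.

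Across the 10 libraries the tested genes most like Irs2 were Adamts1, Nr4a3, Fosl2, Nr4a1 and Hilpda, with Pearson's r of 0.984, 0.980, 0.978, 0.968 and 0.963. Adamts1 encodes a secreted protease, Nr4a1 and Nr4a3 orphan nuclear receptors, Fosl2 an AP-1 subunit and Hilpda a lipid droplet protein. Each was called higher with glucagon, by 0.77 to 3.28. Among the members Foxo1 was nearest to Irs2 (r = 0.75, rank 145 among the genes tested), followed by Irs1 (0.61) and Insr (0.50). Akt2 and Igfbp1 stood at 0.065 and 0.070. The libraries share their sets and treatments, so these r are descriptions.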

How the data were processed

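Hepatocyte RNA of 10 libraries was measured on arrays. The authors deposited 1 table of linear intensity per feature (26913 features, 4.47 to 22694); per the submitters' processing notes it was made with Affymetrix Expression Console 1.1.1. The normalization and the build of the annotation are not given in the sources used here, and gene positions are those of RefSeq GRCm38.p6. Library medians were 282.1 to 298.2. Precision is limited by how few arrays there are. Values were taken as log2(intensity + 1). For each gene with 1 symbol, its feature of highest mean was used; for Akt2 and Insr, fitting each feature was an alternative chosen after seeing the data.

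R 4.3.3 with limma 3.58.1 gave the differences (lmFit and eBayes with trend) over all 11480 genes, with Benjamini-Hochberg adjustment and a threshold of 0.05. The code was tried on simulated data with independent noise and no library sets, so that trial cannot speak for error rates in these libraries. An additive model of arm and treatment and a model of 6 groups were used, and groups with 1 library were assumed to vary like the others. In the groups with 2 libraries, same-lettered libraries deviated together. The deviations of B libraries correlated at 0.721 to 0.844 over all 6 pairs of these groups, so the letter was also fitted as a block. In these groups A always lay in the first library set and B in the second, so the correlations describe the same split. The lone PBS libraries of shKAT2B and shWDR5, lettered A, lay in the second set. The block was chosen from these data, so its p-values may also be too small. Other settings were normalization, filters, features, pseudocounts, the library set and leaving out each library. Members and lists were chosen with earlier results of these data known. Genes named are the 9 members, up to 5 called genes per list and direction by smallest p, and the 5 genes most like Irs2 and Igfbp1. Python 3.11.15 (pandas 2.3.3, matplotlib 3.10.9, numpy 2.4.6) produced the summaries and plots.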

Additional observations from a re-analysis of the deposited data

How the results depend on the processing

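Irs2 kept its direction and its call for glucagon over the arms in every setting tried, at 1.29 to 1.45, and at 1.27 to 1.46 with each library left out. The count of members called for glucagon was 2 with the library set as a term and 2 in the second set alone (1 library per group), and stayed at 1 with each library left out. For shKAT2B it was 2 with no filter on low values and 2 with no trend, where Foxo3 was lost, and 5 with median-centred libraries, 7 with the replicate block, 7 with the set as a term and 6 in the second set alone, and 1 to 4 with each library left out. It was 1 without shKAT2B PBS A or shKAT2B glucagon B, where only Akt2 was called, and the cause was not tested. For shWDR5 it was 1 with quantile normalization, 1 with median-centred libraries, 1 with the replicate block, 3 with the set as a term and 2 in the second set alone, and 0 with each library left out. For shKAT2B the count was also 4 with quantile normalization, where Irs1 was added. It was 3 with only the libraries compared, where Irs1 took the place of Foxo3. The Irs2 interaction in shWDR5 turned to -0.013 with the set as a term, and lay between -0.14 and 0.42 with each library left out. In shKAT2B that interaction lay between -0.52 and 0.044. Differences near 0 changed sign with a library left out: Pik3r1 in shWDR5 (-0.084 to 0.063, and -0.054 with the replicate block), Grb10 with glucagon (-0.035 to 0.086) and in shWDR5 (-0.14 to 0.070) and Foxo1 in shKAT2B (-0.0061 to 0.069). Genes called over the whole table numbered 385 for glucagon with the set as a term and 290 with the replicate block, against 106; 4768 and 3397 against 1792 for shKAT2B; and 4227 and 3065 against 1246 for shWDR5. Interactions gave no value without the lone PBS library of the arm or in the second set alone, and the fit on compared libraries alone gave none for glucagon over the arms.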

Other observations

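The tested genes most like Igfbp1 across the 10 libraries were Grasp, Ecscr, Nop53, Rps27l and Tmem88, with Pearson's r of 0.973, 0.958, 0.944, 0.941 and 0.934. Their glucagon differences were -0.0071 to 0.087, none called by limma. Ecscr encodes an endothelial cell surface protein and Rps27l a ribosomal protein. Among the members Pik3r1 (-0.75) and Foxo3 (-0.65) ran most against Igfbp1. These r describe libraries that share sets and treatments.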
